A study of Rattus norvegicus with 20 samples.

Results

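The comparison set livers of rats fed oltipraz against livers of rats fed the parent dithiolethione D3T, and 10 of the 20 arrays of the series belong to it, 5 per compound. Members were chosen by array label, and the comparison was made as labelled and again without the arrays labelled OLT 1 and D3T 5, which leaves 8 arrays. The study fed female Sprague Dawley rats for 24 days and measured liver RNA on 1-colour Affymetrix arrays, 1 rat per array. OLT rats ate oltipraz, a dithiolethione with methyl and pyrazinyl substituents, at 500 mg per kg of diet. D3T rats ate the unsubstituted 3H-1,2-dithiole-3-thione at 600 mg per kg of diet. Control rats ate the same Harlan Teklad mash with nothing added, and a further group of 5 rats ate 5,6-benzoflavone (BNF) at 1650 mg per kg of diet. BNF arrays entered the shared estimate of spread and the filter on low values, and are not described. Rats were divided at random, and all were killed with carbon dioxide. Their age is not given in the sources used here.

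Dithiolethiones are sulfur heterocycles known as chemopreventive agents. They react with cysteines of Keap1, the protein that marks the transcription factor Nrf2 for breakdown, so that Nrf2 accumulates and binds antioxidant response elements in front of genes of detoxication, glutathione synthesis and NADPH supply. In oltipraz the ring of D3T carries both substituents. The compound is also known to activate other xenobiotic receptors of the liver, and inducers of this kind are studied in rat liver because they protect it from aflatoxin. The 2 compounds form 1 pair, and their doses differed. A difference between the diets therefore cannot be assigned to structure or dose, which cannot be told apart here.

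Values below are log2 probe set values, on which a difference of 1 is 2-fold, and values near or under 4 lie at the background of the array. Of 31042 probe sets 12947 were kept, and they name 7837 genes. A gene is called where limma's moderated test gave a Benjamini-Hochberg adjusted p under 0.05 over all kept probe sets. Differences are OLT minus D3T unless another pair is named, so that a negative one means lower in OLT livers. Each value rests on 5 or fewer arrays per group, which limits its precision.

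The arrays labelled OLT 1 and D3T 5 lay nearer to the other dithiolethione group than to their own. Array OLT 1 had a mean correlation across kept probe sets of 0.9658 with the D3T arrays and 0.9625 with the other OLT arrays. Array D3T 5 had 0.9794 with the OLT arrays and 0.9683 with the other D3T arrays. Each mean with the other group includes the other of these 2 arrays. Further arrays were not all closest to their own group. The array most like D3T 1 was OLT 5 (0.9765). Array OLT 5 had a mean correlation of 0.97 with the control arrays and 0.9648 with the other OLT arrays. As labelled, 0 of 7837 genes were called between OLT and D3T livers (0%), and the smallest adjusted p was 0.113. At an unadjusted p under 0.05 stood 1385 probe sets, 10.7% of those tested. Without the 2 arrays 549 probe sets were called, 229 higher and 320 lower in OLT livers. These named 153 genes that were higher, 1.95% of all genes, and 226 that were lower, 2.88%. These 2 shares are the ones to set beside each count of list members called between the compounds below. The 2 arrays were left out because of their profiles. That choice by itself favours a difference between the groups, so counts and adjusted p without them are a description of the remaining 8 arrays.

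**Figure D1:**
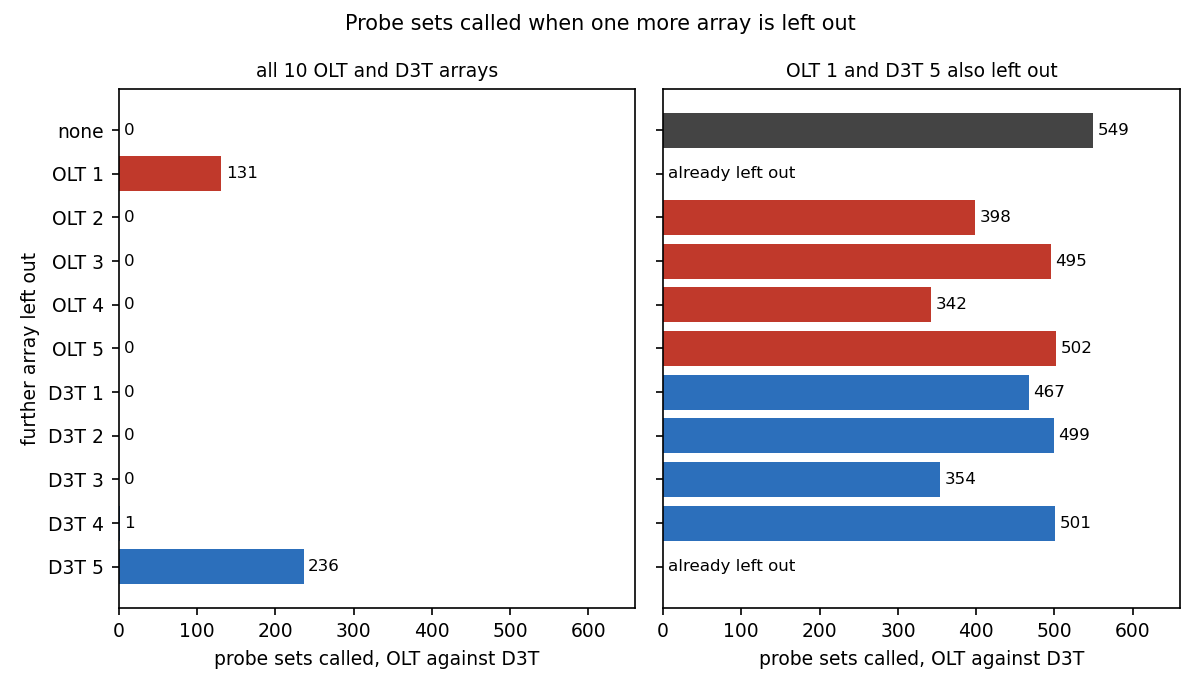
Probe sets called between OLT and D3T arrays (x axis) when the array named on the y axis is left out, starting from all 10 arrays (left) or from the 8 without OLT 1 and D3T 5 (right). From all arrays, leaving out D3T 5 gave 236 calls and leaving out OLT 1 gave 131, against 1 or 0 for every other array; from the 8 arrays the calls ranged from 342 to 502.

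The exchange of position was not the same for every gene. Over the 379 genes called without the 2 arrays, array OLT 1 lay nearer to the mean of the 4 D3T arrays than to that of the 4 OLT arrays for 271 genes, and nearer to the OLT mean for 108. Array D3T 5 lay nearer to the OLT mean for 325 genes and nearer to the D3T mean for 54. Both arrays lay nearer to the other group for 228 genes and both nearer to their own for 11. Of 21 called Nrf2 targets OLT 1 lay nearer to the D3T mean for 21 and D3T 5 nearer to the OLT mean for 20. In contrast OLT 1 lay nearer to the OLT mean for all 3 called clock genes and 4 of 6 called heat shock genes. The files do not settle whether these 2 labels are right, so every mean and difference as labelled stands for the arrays labelled so, and why the 2 arrays lie there was not tested. The values of every array are given below for the genes that carry the comparison.

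**Figure D2:**
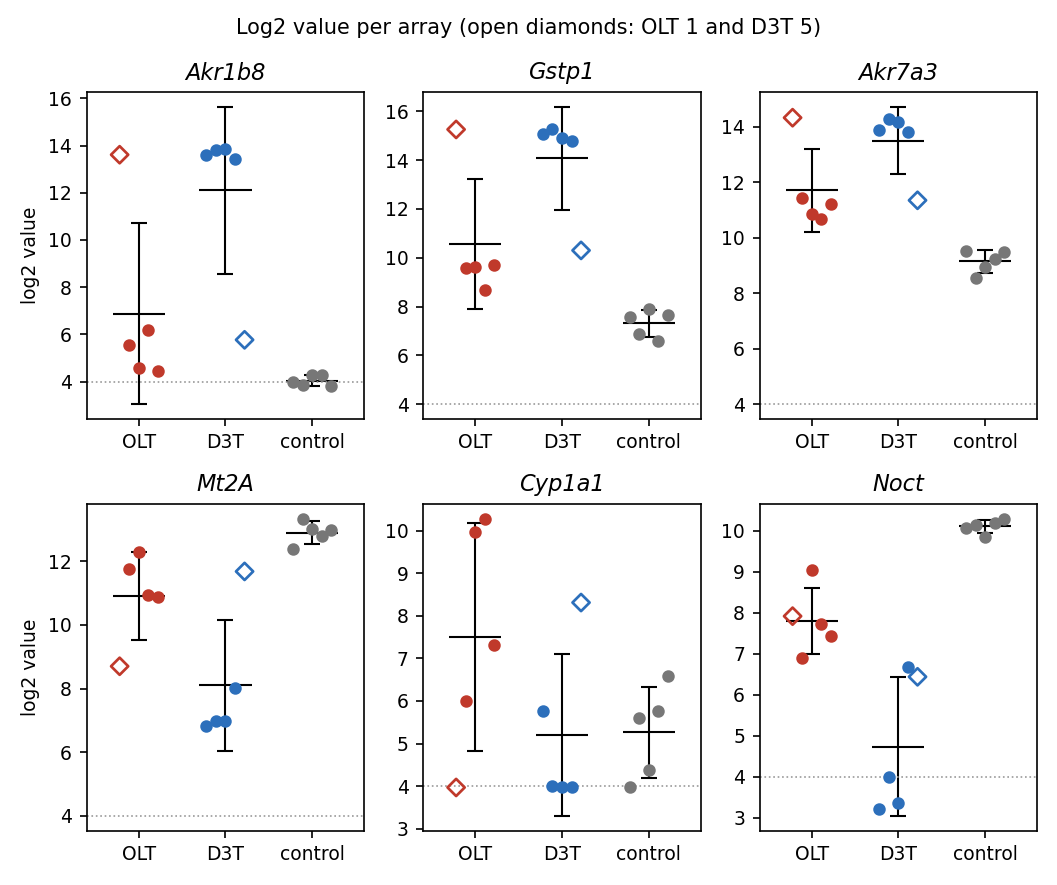
Log2 value (y axis) of 6 genes in each OLT, D3T and control array. Points are arrays, open diamonds are OLT 1 and D3T 5, long horizontal lines and bars are the mean and SD of all 5 arrays of a group, and the dotted line marks the value of 4; for Akr1b8 the diamond of OLT 1 stands at 13.61 among the D3T points, and that of D3T 5 at 5.77 among the OLT points.

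The classical Nrf2 targets were lower in OLT than in D3T livers once the 2 arrays were left out. Of 45 listed targets 32 were measured, and 21 were lower and 0 higher, with differences from -8.48 (Akr1b8) to -0.45 (Txn1, thioredoxin). One of the 21, Abcc4, met the filter on low values only with the D3T arrays, and the same held, with the arrays of the compound in which the gene was higher, for 6 of all 379 genes called. The median difference of the list was -1.08, against -0.02 over all genes. As labelled the median was -0.65, with 29 of 32 members negative and none called. Against control as labelled, 8 targets were higher and 1 lower in OLT livers, and 20 were higher and 1 lower in D3T livers. The shares of all genes called against control were 1.93% higher and 5.58% lower for OLT, and 5.6% higher and 7.45% lower for D3T. Both comparisons use the same 5 control arrays.

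**Figure D3:**
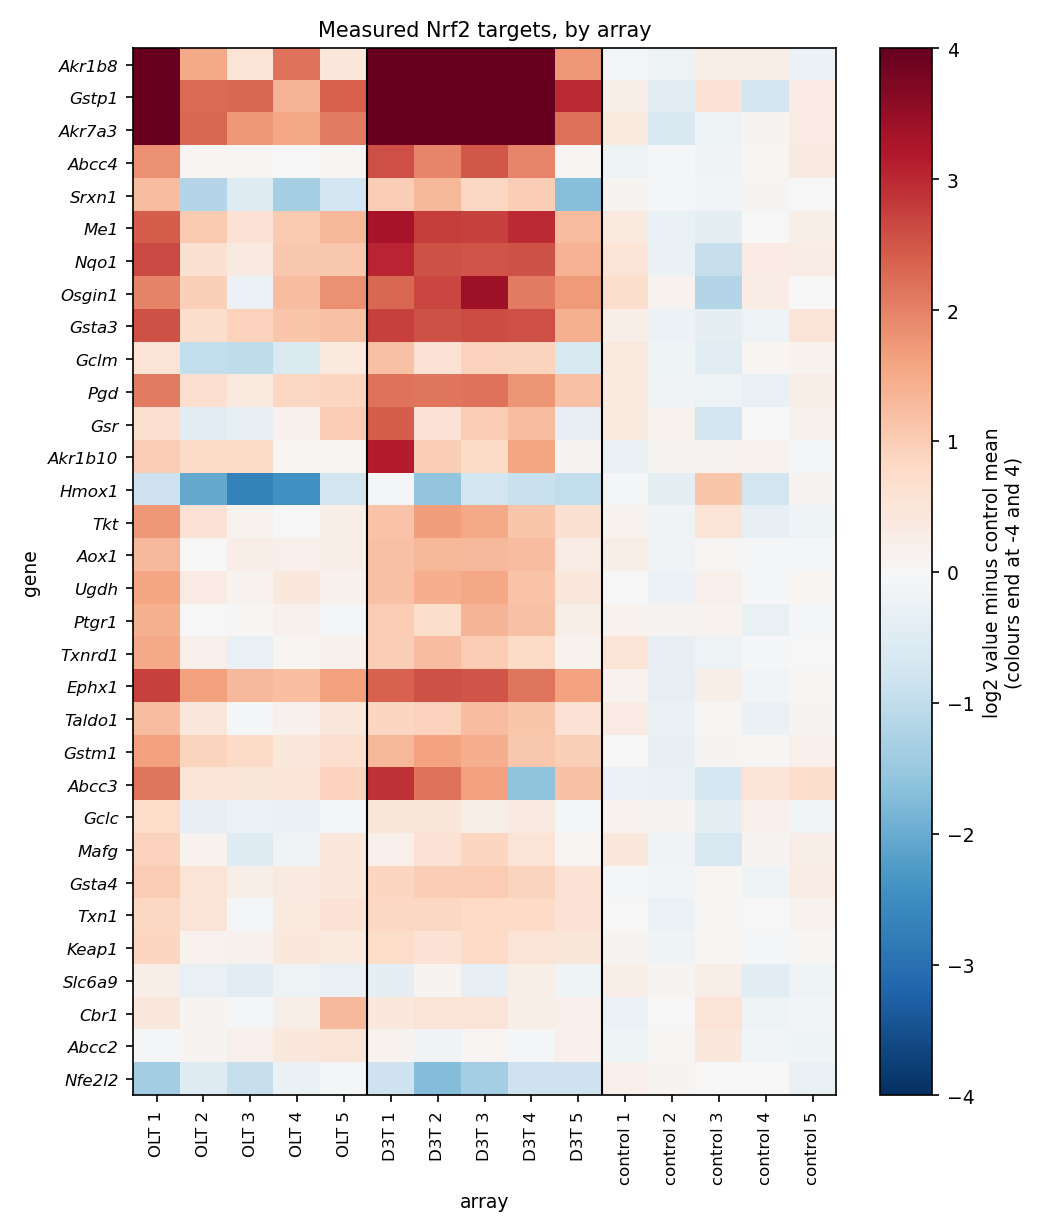
Log2 value minus the control mean (colour, ending at -4 and 4) of the 32 measured Nrf2 targets (y axis, ordered by their difference without OLT 1 and D3T 5) in each array (x axis). For the upper genes the column of OLT 1 has the colours of D3T 1 to D3T 4, and the column of D3T 5 those of OLT 2 to OLT 5.

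Akr1b8 (gene ID 286921), an aldo-keto reductase that reduces reactive aldehydes, had the largest difference of any gene called without the 2 arrays. Its values in OLT arrays 1 to 5 were 13.61, 5.55, 4.58, 6.20 and 4.46. In D3T arrays 1 to 5 they were 13.61, 13.82, 13.86, 13.42 and 5.77. In control arrays they lay between 3.82 and 4.30, at background, so the size of changes against control rests on the background level. As labelled the groups overlapped, and the difference was -5.21 (SE 1.54, 95% interval -8.45 to -1.98, adjusted p = 0.227). The difference was -8.48 without them (SE 0.42, adjusted p = 4.16e-09), with means of 5.20 ± 0.83 in OLT livers and 13.68 ± 0.21 in D3T livers (SD, n = 4 each). Against control as labelled, Akr1b8 was 2.84 higher in OLT livers without passing the test (adjusted p = 0.284) and rose by 8.06 in D3T livers (adjusted p = 0.00229).

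Gstp1 (gene ID 24426), the pi-class glutathione S-transferase known as a marker of preneoplastic foci in rat liver, was arranged in the same way. The OLT arrays read 15.26, 9.58, 9.62, 8.68 and 9.72. The D3T arrays read 15.09, 15.28, 14.89, 14.79 and 10.30. Control arrays lay between 6.57 and 7.89, below every OLT and D3T array. The difference was -3.50 as labelled (SE 1.01, 95% interval -5.61 to -1.38, adjusted p = 0.22) and -5.61 without the 2 arrays (SE 0.30, adjusted p = 5.51e-09). Against control without them, Gstp1 rose by 2.09 in OLT livers (adjusted p = 0.000368) and by 7.70 in D3T livers (adjusted p = 2.61e-11). The order was thus D3T, then OLT, then control, with no overlap among the 13 OLT, D3T and control arrays of that fit. The separation of OLT from D3T arrays rests on leaving out the 2 arrays and is part of the naming rule. As labelled these groups overlapped.

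The promoters of these genes are shown because they head the list and differ in whether the core of an antioxidant response element, TGACNNNGC searched on both strands, occurs in the 250 bases before the start. Sequences are from RefSeq (GRCr8), printed 5′ to 3′ on the gene's strand, with matches in capitals. Gstp1 lies at chr1:210769706-210769955 on the minus strand and holds 1 match, 61 bases before the start; Akr1b8 lies at chr4:63964171-63964420 on the plus strand and holds none.
Gstp1: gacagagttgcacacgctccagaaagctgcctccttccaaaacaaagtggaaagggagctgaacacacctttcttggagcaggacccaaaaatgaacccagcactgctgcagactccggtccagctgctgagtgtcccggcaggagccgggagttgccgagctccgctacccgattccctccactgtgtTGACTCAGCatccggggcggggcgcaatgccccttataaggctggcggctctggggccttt
Akr1b8: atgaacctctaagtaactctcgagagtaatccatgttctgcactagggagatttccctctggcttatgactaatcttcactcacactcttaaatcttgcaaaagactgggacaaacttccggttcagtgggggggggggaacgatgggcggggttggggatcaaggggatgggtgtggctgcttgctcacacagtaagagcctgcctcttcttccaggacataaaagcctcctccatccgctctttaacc

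All 21 Nrf2 targets called without the 2 arrays had a promoter window, and 7 of them held a match. Several genes have more than 1 annotated start, so these 21 genes have 24 windows, of which 29.2% held a match. Of the 31 windows of measured targets 22.6% did, and of all 33469 RefSeq windows the share was 10.1%. The other 6 matches are printed with up to 10 flanking bases, read on the strand that holds TGAC. They lie at chr2:213031953-213031981 (Gclm, minus), chr7:22755964-22755992 (Txnrd1, plus), chr9:31154962-31154988 (Gsta3, plus), chr13:95263156-95263184 (Ephx1, plus), chr8:96540393-96540421 (Me1, minus) and chr14:43202301-43202329 (Ugdh, minus). A match describes the letters and is not a measured binding site.
Gclm: tggaagacaaTGACTAAGCagaaaccgca
Txnrd1: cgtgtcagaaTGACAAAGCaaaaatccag
Gsta3: aactcaggcaTGACTTCGCattttttc
Ephx1: atagccccaaTGACTCAGCtgatctgttg
Me1: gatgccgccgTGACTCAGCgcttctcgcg
Ugdh: cccaaatgtaTGACCACGCcccttgtgga

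Among reductases and quinone-detoxifying enzymes, Akr7a3 and Nqo1 had the same arrangement of arrays. Akr7a3 (gene ID 26760), the aflatoxin aldehyde reductase, read 14.33, 11.45, 10.87, 10.68 and 11.21 in OLT arrays. In D3T arrays it read 13.88, 14.29, 14.17, 13.82 and 11.35, and in control arrays between 8.54 and 9.53. Every OLT and D3T array lay above every control array, and OLT 1 was the highest of all. The difference was -1.79 as labelled (SE 0.61, adjusted p = 0.286) and -2.99 without the 2 arrays (SE 0.31, adjusted p = 2.11e-05). Akr7a3 rose against control as labelled with both compounds, by 2.57 in OLT livers (adjusted p = 0.0166) and by 4.36 in D3T livers (adjusted p = 0.000161). Nqo1, the quinone reductase used as the reference marker of Nrf2 inducers, averaged 9.61 ± 0.89 in OLT livers, 10.86 ± 0.61 in D3T livers and 8.45 ± 0.60 in control livers (SD, n = 5 each). It differed by -1.25 as labelled (adjusted p = 0.236) and by -1.88 without the 2 arrays (adjusted p = 0.000791). Of 15 measured aldo-keto and carbonyl reductases 3 were lower and 0 higher in OLT livers without the 2 arrays. Their median difference was -0.33. Of the 3, Akr1b8 and Akr7a3 are also counted among the Nrf2 targets.

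Glutathione S-transferases conjugate electrophiles to glutathione. Of 17 measured, 9 were lower in OLT than in D3T livers and none higher without the 2 arrays, with a median of -0.44. Gstp1, Gsta3, Gsta4 and Gstm1 of the 9 are also counted among the Nrf2 targets. As labelled against control, 7 of the 17 rose in OLT livers and 12 in D3T livers, and none fell in either. Over all genes 1.93% rose in OLT livers and 5.6% in D3T livers. Gsta3, of the alpha class, read 12.02, 10.19, 10.39, 10.60 and 10.65 in OLT arrays and 12.22, 12.04, 12.08, 12.07 and 10.90 in D3T arrays, against 9.48 ± 0.38 in control arrays (SD, n = 5). All OLT and D3T arrays lay above the control arrays. Gsta3 differed by -1.09 as labelled (adjusted p = 0.226) and by -1.65 without the 2 arrays (adjusted p = 0.000368). Gstm4, of the mu class, did not pass the test in OLT livers against control as labelled (0.57, adjusted p = 0.312) and rose in D3T livers (1.70, adjusted p = 0.00257). Its difference between the compounds was -1.75 without the 2 arrays (adjusted p = 3.88e-05). Gsta4, which acts on the lipid peroxidation product 4-hydroxynonenal, differed by -0.55 (adjusted p = 0.00743). Probes for closely related transferases, and for Akr1b8 and its near relatives, can share signal, so values of single members are uncertain to that extent.

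Enzymes of glutathione synthesis and of thiol reduction include several Nrf2 targets. Of 24 measured, 8 were lower in OLT than in D3T livers and none higher without the 2 arrays, with a median of -0.40. Srxn1, Gclm, Gclc, Txnrd1 and Txn1 of the 8 are also counted among the Nrf2 targets. Srxn1, the sulfiredoxin that repairs overoxidised peroxiredoxins, read 9.19, 6.78, 7.44, 6.61 and 7.20 in OLT arrays. It read 8.94, 9.27, 8.79, 8.95 and 6.25 in D3T arrays, and between 7.83 and 8.07 in control arrays. Array D3T 5 was thus the lowest of these arrays, and OLT 2 to OLT 5 all lay below the control arrays. Without the 2 arrays Srxn1 fell against control by 0.94 in OLT livers (adjusted p = 0.00473) and rose by 1.04 in D3T livers (adjusted p = 0.000909), and the compounds differed by -1.98 (adjusted p = 6.61e-06). As labelled none of these passed, and the compounds differed by -1.0 (adjusted p = 0.472). Gclm and Gclc encode the modifier and catalytic subunits of glutamate-cysteine ligase, the rate-limiting enzyme of glutathione synthesis. Gclm differed by -1.43 (adjusted p = 0.0121) and Gclc by -0.61 (adjusted p = 0.0172) without the 2 arrays. Neither passed against control in either fit, with OLT minus control of -0.32 for Gclm and -0.03 for Gclc as labelled. Hmox1, heme oxygenase, and Nfe2l2, which encodes Nrf2, were singled out after their values were seen. They differed by -1.16 (adjusted p = 0.155) and 0.74 (adjusted p = 0.0592) without the 2 arrays, and did not pass. Nfe2l2 was called under 6 of 15 alternative settings of that fit and Hmox1 under 1.

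NADPH is the reductant of the pathways above. Genes of NADPH supply and the pentose phosphate pathway were lower in OLT livers in 4 of 9 measured members without the 2 arrays. Their median was -0.52, and none was higher. The 4 were Me1, Pgd, Tkt and Taldo1, all of them also counted among the Nrf2 targets. Me1 and Pgd make NADPH, whereas Tkt and Taldo1 belong to the non-oxidative branch, which makes none. Idh1 (-0.13, adjusted p = 0.532) and H6pd (-0.23, adjusted p = 0.607), which also make NADPH, were not called. Me1, cytosolic malic enzyme, read 10.99, 9.61, 9.14, 9.62 and 9.91 in OLT arrays and 11.86, 11.35, 11.30, 11.56 and 9.84 in D3T arrays, against 8.19 to 8.97 in control arrays. Every OLT and D3T array lay above every control array. Me1 differed by -1.33 as labelled (adjusted p = 0.189) and -1.95 without the 2 arrays (adjusted p = 0.000185). As labelled it rose against control in OLT livers by 1.28 (adjusted p = 0.0369) and in D3T livers by 2.61 (adjusted p = 0.000112). Pgd, of the oxidative pentose phosphate pathway, differed by -1.38 without the 2 arrays (adjusted p = 0.0012). Tkt, transketolase of the non-oxidative branch, differed by -1.11 (adjusted p = 0.00296). It averaged 10.59 ± 0.24 in OLT livers, 11.70 ± 0.28 in D3T livers (n = 4 each) and 10.34 ± 0.35 in control livers (SD, n = 5). Ephx1, microsomal epoxide hydrolase, rose with both compounds as labelled, by 1.70 in OLT livers (adjusted p = 0.000318) and 2.24 in D3T livers (adjusted p = 1.26e-05). Its difference between them was -0.53 as labelled (95% interval -1.04 to -0.03, adjusted p = 0.431) and -0.94 without the 2 arrays (adjusted p = 0.00322).

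Of 14 measured transporters of xenobiotics and bile components, 5 of them uptake carriers, 2 were higher and 1 lower in OLT livers without the 2 arrays, with a median of 0.15. Over all genes 1.95% were higher and 2.88% lower. The 3 called, Abcc4, Abcb4 and Abcg5, are exporters. The lower one was Abcc4, which exports conjugates into blood and is also counted among the Nrf2 targets. It read 5.63 in OLT 1 and 3.83 to 3.89 in the other 4 OLT arrays, at background. In D3T arrays it read 6.37, 5.76, 6.30, 5.74 and 3.86, and in control arrays 3.59 to 4.14. Only OLT 1 and D3T 1 to D3T 4 among these 15 arrays stood clear of background. Abcc4 met the filter on low values only with the D3T arrays, so its difference of -1.40 as labelled and -2.19 without the 2 arrays is a description. Abcc3, a related exporter, did not pass in either fit. Its difference was -0.32 as labelled (95% interval -1.53 to 0.89), and array D3T 4 at 6.40 lay below every control array.

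Metallothioneins, cysteine-rich proteins that bind zinc and copper, were higher in OLT than in D3T livers without the 2 arrays, and D3T livers were the ones far below control. Mt2A (gene ID 689415) read 8.70, 11.76, 12.29, 10.93 and 10.87 in OLT arrays. It read 6.83, 6.99, 6.97, 8.02 and 11.68 in D3T arrays, and between 12.37 and 13.34 in control arrays. No OLT or D3T array reached the lowest control array, and D3T 1 to D3T 4 were the lowest of all. Mt2A differed by 2.81 as labelled (SE 0.74, 95% interval 1.26 to 4.36, adjusted p = 0.181) and by 4.26 without the 2 arrays (SE 0.33, adjusted p = 4.96e-07). Against control as labelled, the difference in OLT livers was -1.99 and did not pass (adjusted p = 0.117), and Mt2A fell by 4.79 in D3T livers (adjusted p = 0.000349). In the fit of the remaining arrays it fell by 1.43 in OLT livers (adjusted p = 0.0135) and by 5.69 in D3T livers (adjusted p = 2.84e-09).

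Mt1 (gene ID 24567) read 8.51, 9.01, 10.16, 8.19 and 7.85 in OLT arrays. It read 5.02, 6.54, 6.00, 5.91 and 8.48 in D3T arrays, and between 8.85 and 10.52 in control arrays. For Mt1, unlike Mt2A, array OLT 1 lay among the other OLT arrays, and D3T 5 alone caused the overlap. The difference was 2.36 as labelled (adjusted p = 0.169) and 2.94 without the 2 arrays (adjusted p = 0.00321). The genes are near copies, so that probes may share signal between them. Of the 12 measured genes of metal handling, the third one called was Slc39a4, the zinc importer ZIP4, which was lower in OLT livers. Slc39a4 rose against control with both compounds as labelled, by 1.33 in OLT livers (adjusted p = 0.00883) and 2.26 in D3T livers (adjusted p = 5.92e-05). It differed between them by -1.43 without the 2 arrays (adjusted p = 0.000105).

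The metallothionein promoters are shown for the metal response element core, TGCACNC or TGCGCNC on either strand, with matches in capitals. Overlapping matches would be merged into 1 run of capitals. Both windows also hold the core of the antioxidant response element, TGACNNNGC, which is left in lower case here. That core is therefore not confined to genes that were lower in OLT livers. Mt2A at chr19:10838709-10838958 (minus strand, RefSeq GRCr8) holds 4 matches and Mt1 at chr19:10832976-10833225 (minus strand) holds 6. Of all windows of 250 bases 10.3% hold the form with A, 11.8% the form with G and 20.6% either form.
Mt2A: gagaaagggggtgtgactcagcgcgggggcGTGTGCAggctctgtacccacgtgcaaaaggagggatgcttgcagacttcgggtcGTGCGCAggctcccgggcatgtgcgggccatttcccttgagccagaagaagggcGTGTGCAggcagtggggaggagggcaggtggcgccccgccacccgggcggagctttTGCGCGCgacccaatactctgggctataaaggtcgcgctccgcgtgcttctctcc
Mt1: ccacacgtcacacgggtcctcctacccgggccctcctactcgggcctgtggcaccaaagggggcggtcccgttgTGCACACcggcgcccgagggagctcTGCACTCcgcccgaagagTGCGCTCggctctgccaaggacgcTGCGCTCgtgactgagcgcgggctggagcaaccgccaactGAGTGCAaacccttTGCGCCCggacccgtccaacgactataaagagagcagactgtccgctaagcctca

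Among targets of the aryl hydrocarbon receptor (AhR), the cytochrome P450 genes Cyp1a1 and Cyp1a2 were higher in OLT livers without the 2 arrays. Cyp1a1 (gene ID 24296) read 3.97, 6.00, 9.97, 10.28 and 7.32 in OLT arrays. It read 5.76, 4.00, 3.98, 3.97 and 8.31 in D3T arrays and 3.99, 5.61, 4.37, 5.76 and 6.59 in control arrays. The OLT arrays spread from background to the 2 highest values, and D3T 2 to D3T 4 lay at background. The difference was 2.31 as labelled (SE 1.01, 95% interval 0.20 to 4.41, adjusted p = 0.423) and 3.97 without the 2 arrays (SE 0.77, adjusted p = 0.00605). Against control, Cyp1a1 did not pass in OLT livers as labelled (2.25, adjusted p = 0.193) and rose without OLT 1 and D3T 5 (3.13, adjusted p = 0.0201).

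Cyp1a2, abundant in every liver, read 13.84, 14.32, 14.59, 14.42 and 14.27 in OLT arrays and 13.59, 13.49, 13.42, 13.44 and 14.51 in D3T arrays, against 13.59 to 14.13 in control arrays. The difference was 0.92 without the 2 arrays (adjusted p = 0.000183). In that fit Cyp1a2 rose against control in OLT livers by 0.52 (adjusted p = 0.0107) and fell in D3T livers by 0.39 (adjusted p = 0.0248). Cyp1b1, of the same family, stayed under 3 in all OLT, D3T and control arrays and was kept through the 5 BNF arrays alone. Of 10 measured AhR targets 2 were higher and 1 lower in OLT livers without the 2 arrays. The lower one was Nqo1, which the list shares with the Nrf2 targets. Over all genes 1.95% were called higher and 2.88% lower in that fit.

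Targets of the receptors CAR and PXR, which regulate drug-metabolising enzymes, had a median difference of 0.18 without the 2 arrays, with 3 of 16 measured members higher and 1 lower in OLT livers. The shares of all genes were 1.95% higher and 2.88% lower. Cyp3a9, a cytochrome P450, read 10.83, 12.33, 12.00, 13.03 and 13.04 in OLT arrays and 11.31, 10.42, 10.45, 11.45 and 12.67 in D3T arrays, against 13.19 to 13.81 in control arrays. All OLT and D3T arrays lay below the control arrays, D3T 2 the lowest. Cyp3a9 differed by 0.98 as labelled (adjusted p = 0.417) and 1.69 without the 2 arrays (adjusted p = 0.00565). Against control as labelled, the difference in OLT livers was -1.32 and did not pass (adjusted p = 0.0706), and Cyp3a9 fell by 2.30 in D3T livers (adjusted p = 0.00167). The anchor gene Cyp2b1 had no kept probe set of its own.

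**Figure D4:**
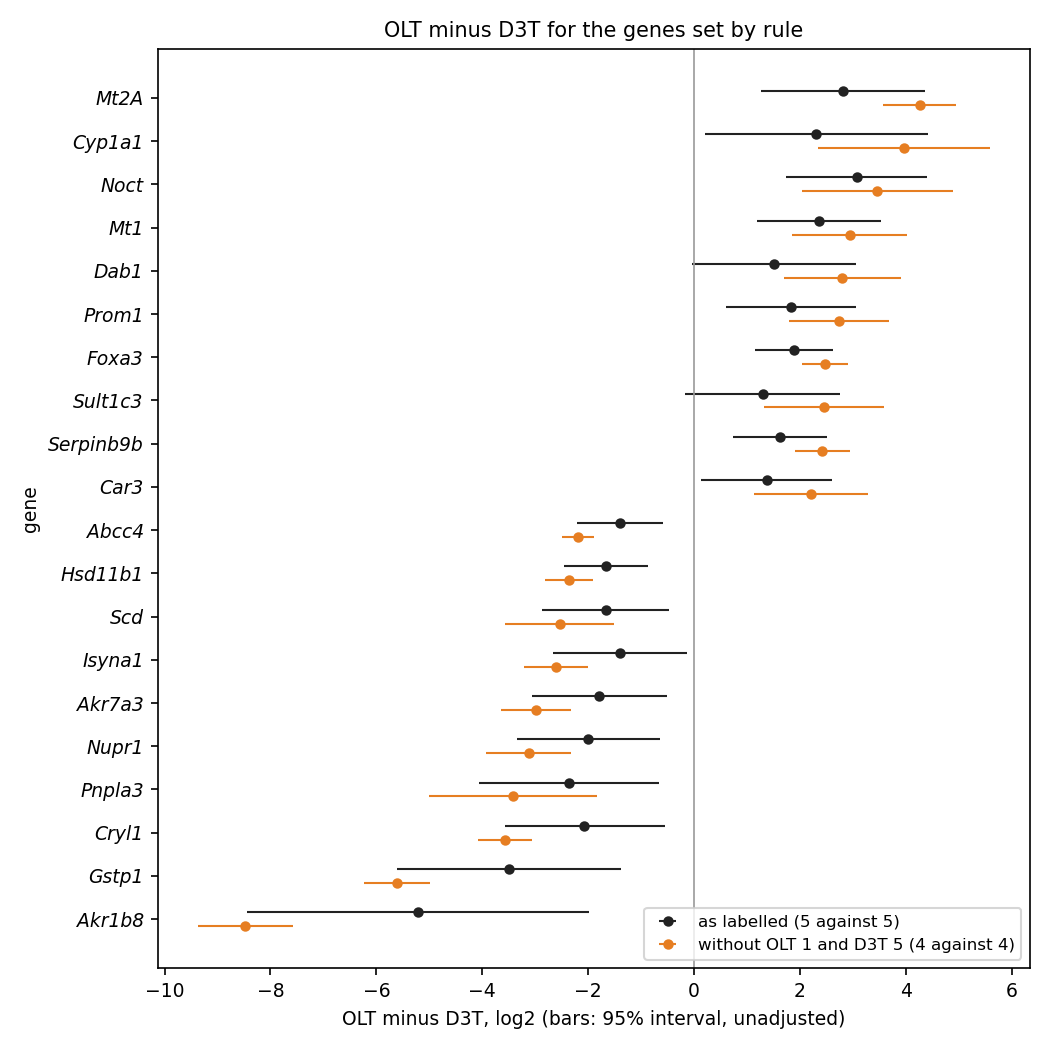
OLT minus D3T difference on the log2 scale (x axis) of the 10 highest and 10 lowest genes named by rule (y axis), as labelled (black, 5 against 5) and without OLT 1 and D3T 5 (orange, 4 against 4), with unadjusted 95% intervals. The difference lies farther from 0 without the 2 arrays for all 20 genes, from -8.48 for Akr1b8 to 4.26 for Mt2A. These genes were named by their difference in that fit, so the shift follows from the choice and is no result.

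Of 18 measured genes of the circadian clock and its output, 4 fell and 1 rose against control in OLT livers as labelled, and 6 fell and 2 rose in D3T livers. Over all genes 5.58% fell and 1.93% rose in OLT livers, and 7.45% fell and 5.6% rose in D3T livers. Noct, nocturnin, whose mRNA cycles with the time of day in liver, read 7.92, 6.89, 9.05, 7.72 and 7.44 in OLT arrays. It read 3.21, 3.99, 3.37, 6.67 and 6.44 in D3T arrays and between 9.85 and 10.30 in control arrays. The D3T values of 3.21, 3.99 and 3.37 lie at background, so the sizes of differences from D3T livers rest partly on that level. Noct is among 20 genes, 0.255% of all, for which all 5 OLT arrays lay above all 5 D3T arrays as labelled. For 71 genes, 0.906%, all OLT arrays lay below all D3T arrays. Without the 2 arrays these counts were 315 (4.02%) and 502 (6.41%). The difference in Noct was 3.07 as labelled (SE 0.64, 95% interval 1.73 to 4.40, adjusted p = 0.113) and 3.46 without the 2 arrays (adjusted p = 0.0064). It fell against control as labelled by 2.30 in OLT livers (adjusted p = 0.0368) and by 5.37 in D3T livers (adjusted p = 3.32e-05).

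Per2, a repressor within the clock, read 7.63, 6.98, 8.69, 7.90 and 8.35 in OLT arrays. It read 4.73, 4.37, 4.79, 7.19 and 7.55 in D3T arrays and between 9.72 and 10.39 in control arrays. The D3T arrays thus split into 3 low and 2 higher ones, as for Noct, and here the higher ones overlapped the OLT range. Per2 differed by 2.19 as labelled (adjusted p = 0.169) and 2.71 without the 2 arrays (adjusted p = 0.00411). Usp2, a ubiquitin protease with a daily rhythm, read 8.22 to 9.92 in OLT arrays and split likewise in D3T arrays, with 5.32, 4.37 and 6.39 in D3T 1 to D3T 3, 9.17 in D3T 4 and 9.18 in D3T 5. Its difference of 2.74 without the 2 arrays (adjusted p = 0.0406) was called under 6 of 15 alternative settings of that fit. Between the compounds 3 clock genes were higher in OLT livers without the 2 arrays and none lower, with a median of 0.39. Over all genes 1.95% were higher and 2.88% lower. The time of day at which each rat was killed is not given in the sources used here, so its part in these values was not tested.

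Heat shock genes encode chaperones. As labelled, 6 of 19 measured members fell against control in OLT livers and 12 in D3T livers, and none rose. Over all genes 5.58% fell in OLT livers and 7.45% in D3T livers. Between the compounds, 6 of the 19 were higher in OLT livers without the 2 arrays and none lower, against 1.95% and 2.88% of all genes. Their median was 0.17, against a median of 0.30 as labelled. Hsph1, a large chaperone of the Hsp110 type, read 10.27, 10.65, 10.64, 10.64 and 10.60 in OLT arrays and 9.76, 9.60, 9.79, 9.78 and 10.37 in D3T arrays, against 10.65 to 11.11 in control arrays. The groups overlapped through D3T 5, which lay just above OLT 1. Hsph1 differed by 0.70 as labelled (adjusted p = 0.113) and 0.90 without the 2 arrays (adjusted p = 0.000339). Dnaja4, a co-chaperone, differed by 0.58 as labelled (adjusted p = 0.714) and 1.35 without the 2 arrays (adjusted p = 0.0109), and OLT 1 at 4.48 was its lowest array. In the fit of OLT and D3T arrays alone Dnaja4 lost that call (adjusted p = 0.11). Hspa1a, the inducible Hsp70, fell with both compounds as labelled, by 4.99 in OLT livers (adjusted p = 5.36e-05) and by 5.46 in D3T livers (adjusted p = 1.01e-05). The compounds did not differ detectably in Hspa1a, with a difference of 0.47 as labelled (95% interval -0.71 to 1.65) and -0.005 without the 2 arrays (95% interval -1.29 to 1.28).

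**Figure D5:**
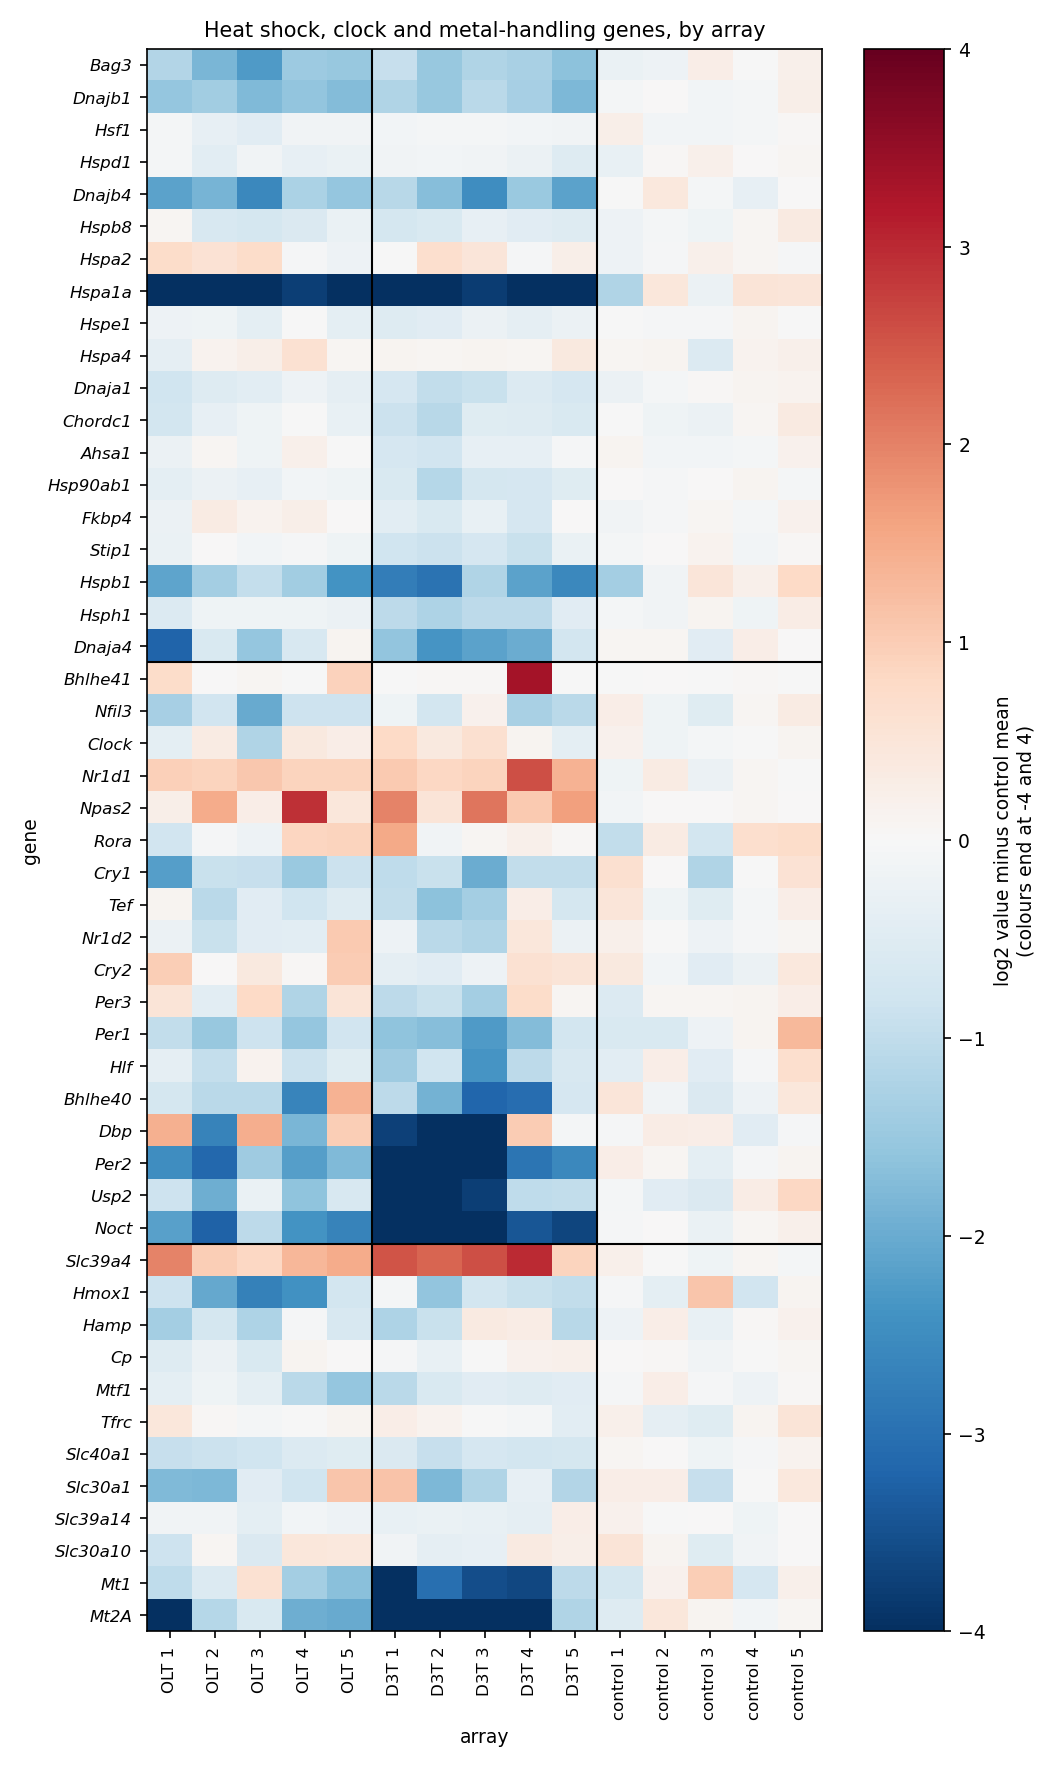
Log2 value minus the control mean (colour, ending at -4 and 4) of measured heat shock (top), clock (middle) and metal-handling genes (bottom) in each OLT, D3T and control array (x axis). Hspa1a is dark blue in all OLT and D3T arrays, whereas Mt2A is as dark in OLT 1 as in D3T 1 to D3T 4 and lighter in D3T 5 than in OLT 1, OLT 4 and OLT 5.

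Genes of fatty acid synthesis were lower in OLT livers without the 2 arrays in 8 of 23 measured members, with none higher and a median of -0.52. Me1 is among the 8 and is also counted as an Nrf2 target and under NADPH supply. Scd, stearoyl-CoA desaturase, read 13.03, 11.22, 11.48, 9.44 and 10.97 in OLT arrays and 13.52, 13.36, 12.85, 13.55 and 11.22 in D3T arrays, against 9.57 to 11.70 in control arrays. Arrays D3T 1 to D3T 4 and OLT 1 lay above all control arrays, and the remaining ones within the control range or just beside it. Scd differed by -1.67 as labelled (adjusted p = 0.288) and -2.54 without the 2 arrays (adjusted p = 0.00566). Set against control as labelled, Scd was 0.62 higher in OLT livers without passing (adjusted p = 0.54) and rose by 2.30 in D3T livers (adjusted p = 0.0135). Pnpla3, a lipid droplet protein, read 3.27 to 5.41 in OLT arrays and 8.66, 9.34, 4.08, 5.63 and 3.52 in D3T arrays. Its mean in D3T livers thus rests mostly on D3T 1 and D3T 2, and its difference was -3.42 without the 2 arrays. Pnpla3 met the filter on low values only with the D3T arrays, so that this difference and its call are a description. The calls also included Fasn, Acaca and Acly, which carry out the steps from citrate to palmitate.

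Among 26 measured targets of PPARα and enzymes of fatty acid oxidation, 11 fell against control as labelled in OLT livers, with 0 rising, and 14 fell in D3T livers, with 2 rising. Over all genes 5.58% fell and 1.93% rose in OLT livers, and 7.45% fell and 5.6% rose in D3T livers. Between the compounds 2 of the 26 were higher and 1 lower in OLT livers without the 2 arrays, with a median of 0.17. The shares of all genes there were 1.95% higher and 2.88% lower. Ech1, an enzyme of the oxidation of unsaturated fatty acids, fell as labelled by 1.55 in OLT livers (adjusted p = 0.000258) and 2.30 in D3T livers (adjusted p = 2.35e-06). It differed between the compounds by 0.75 as labelled (adjusted p = 0.206) and 0.97 without the 2 arrays (adjusted p = 0.0139). Angptl4, a secreted inhibitor of lipoprotein lipase, differed by -1.59 without the 2 arrays (adjusted p = 0.0148). Against control as labelled it was 0.95 higher in OLT livers without passing (adjusted p = 0.13) and rose by 2.09 in D3T livers (adjusted p = 0.00114).

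Of 17 measured genes of bile acid synthesis and transport, 3 were higher in OLT livers without the 2 arrays and none lower. Over all genes 1.95% were higher and 2.88% lower. Abcb4 of the 3 is also counted among the transporters. Cyp8b1, the sterol hydroxylase that makes cholic acid, read 12.33, 11.76, 12.39, 12.75 and 11.84 in OLT arrays and 11.14, 11.03, 11.37, 10.85 and 12.12 in D3T arrays, against 12.71 to 13.72 in control arrays. Array D3T 5 alone lay within the OLT range. Cyp8b1 differed by 0.91 as labelled (adjusted p = 0.169) and 1.09 without the 2 arrays (adjusted p = 0.0062), and fell against control as labelled by 0.88 in OLT livers (adjusted p = 0.0238) and 1.80 in D3T livers (adjusted p = 5.07e-05). Cyp7a1, whose hydroxylation of cholesterol limits the rate at which bile acids are made, averaged 12.61 ± 0.57 in OLT livers, 11.09 ± 1.07 in D3T livers and 11.74 ± 1.15 in control livers (SD, n = 5 each). Its difference of 1.91 without the 2 arrays did not pass (95% interval 0.72 to 3.11, adjusted p = 0.069). Abcb4, which exports phosphatidylcholine into bile, differed by 0.94 without the 2 arrays (adjusted p = 0.0472) and was called under 6 of 15 alternative settings. Abcg5, part of the sterol exporter of liver, differed by 2.90 (adjusted p = 0.00183). It read 2.34, 4.40, 4.76, 5.89 and 6.91 in OLT arrays and 1.87 to 3.93 in D3T arrays, so that its D3T values lie at background.

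Of 17 measured genes of serine, glycine and one-carbon metabolism and its stress regulators, 4 were lower in OLT livers without the 2 arrays and none higher, with a median of -0.22. They were Psat1 of serine synthesis and the stress regulators Trib3, Ddit3 and Atf4. No enzyme of the one-carbon and methionine cycles was called, and Psph, the other measured enzyme of serine synthesis, had a difference of 0.55 (adjusted p = 0.303). Psat1, an aminotransferase of serine synthesis, read 6.55, 4.31, 3.28, 3.92 and 6.73 in OLT arrays and 6.71, 6.93, 8.26, 7.05 and 4.05 in D3T arrays, against 2.20 to 2.82 in control arrays. Every OLT and D3T array lay above every control array, and OLT 5 lay with OLT 1 near the D3T values. The control values, the OLT values of 4.31, 3.28 and 3.92 and the D3T value of 4.05 lie at background. The order among these arrays is thus one of background readings. Psat1 differed by -1.64 as labelled and -2.68 without the 2 arrays, a description, since it met the filter on low values only with the D3T arrays. Ddit3 encodes the stress transcription factor CHOP and Trib3 a pseudokinase that binds Akt and CHOP. In the fit without OLT 1 and D3T 5, Ddit3 fell against control in OLT livers by 1.16 (adjusted p = 0.00945), with 0.09 in D3T livers (adjusted p = 0.857). Trib3 differed between the compounds by -1.94 (adjusted p = 0.00127). Nupr1, a small stress-induced nuclear protein, read 11.47, 6.97, 7.52, 7.34 and 8.17 in OLT arrays and 10.32, 10.70, 10.80, 10.69 and 8.98 in D3T arrays, against 8.39 to 10.19 in control arrays. Arrays OLT 2 to OLT 5 lay below all control arrays. Nupr1 differed by -2.0 as labelled (adjusted p = 0.266) and -3.12 without the 2 arrays (adjusted p = 0.000113).

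Other genes with large differences by the naming rule came from several pathways. Cryl1, which acts on gulonate in the breakdown of glucuronate, read 10.69, 6.61, 6.74, 7.33 and 7.66 in OLT arrays and 10.76, 10.44, 10.89, 10.54 and 6.73 in D3T arrays, against 4.86 to 5.91 in control arrays. All OLT and D3T arrays lay above the control arrays. Cryl1 differed by -2.07 as labelled (adjusted p = 0.294) and -3.57 without the 2 arrays (adjusted p = 8.78e-08). Isyna1, the enzyme of inositol synthesis, differed by -2.60 (adjusted p = 3.88e-05), and Hsd11b1, which makes active glucocorticoid, by -2.36 (adjusted p = 3.81e-06), both without the 2 arrays. In that fit the difference of Hsd11b1 from control was -0.10 in OLT livers (adjusted p = 0.844), and it rose by 2.26 in D3T livers (adjusted p = 1.03e-06).

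Foxa3, a hepatocyte transcription factor, read 5.67, 5.91, 5.89, 6.75 and 6.87 in OLT arrays and 4.10, 3.97, 3.79, 3.67 and 6.13 in D3T arrays, against 6.84 to 7.40 in control arrays. Arrays D3T 1 to D3T 4 lay at background. Foxa3 differed by 1.89 as labelled (adjusted p = 0.113) and 2.47 without the 2 arrays (adjusted p = 1.06e-06). Serpinb9b, a serine protease inhibitor, differed by 2.42 (adjusted p = 1.50e-05), the membrane protein Prom1 by 2.74 (adjusted p = 0.00161) and the adaptor Dab1 by 2.80 (adjusted p = 0.00491) without the 2 arrays. For Serpinb9b and Prom1, the D3T livers fell against control in that fit by 2.00 (adjusted p = 2.07e-05) and by 2.74 (adjusted p = 0.000321). For Dab1 the D3T arrays other than D3T 5 read 3.44 to 4.12, at background, so the size of its difference rests on that level. Sult1c3, a sulfotransferase, fell with both compounds as labelled, by 2.79 in OLT livers (adjusted p = 0.0219) and 4.09 in D3T livers (adjusted p = 0.00087). It differed between them by 2.45 without the 2 arrays (adjusted p = 0.0132). Car3, a carbonic anhydrase abundant in rat liver, differed by 2.21 in that fit (adjusted p = 0.0199).

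Genes of pericentral hepatocytes, the cells around the hepatic vein, had a median difference of 0.69 without the 2 arrays, with 4 of 12 measured members higher in OLT livers and none lower. They were Axin2, Lect2, Glul and Cyp1a2, the last also counted among the AhR targets. Axin2, a feedback inhibitor of Wnt signalling, read 6.72, 7.81, 7.31, 7.17 and 7.20 in OLT arrays and 6.51, 5.88, 4.96, 6.19 and 6.98 in D3T arrays, against 7.26 to 8.22 in control arrays. The OLT and D3T arrays overlapped through OLT 1 and D3T 5. Axin2 differed by 1.14 as labelled (adjusted p = 0.178) and 1.49 without the 2 arrays (adjusted p = 0.00621). Lect2, a secreted hepatocyte protein, differed by 1.01 (adjusted p = 0.000308). In a piece of liver, fewer cells of a type and less RNA per cell cannot be told apart. Of 14 measured periportal genes 2 were higher and none lower, against 1.95% and 2.88% of all genes. One of them was Asl of the urea cycle, with 0.63 as labelled (adjusted p = 0.113) and 0.72 without the 2 arrays (adjusted p = 0.000926). Tat, tyrosine aminotransferase, differed by 0.87 as labelled (adjusted p = 0.113) and 1.01 without the 2 arrays (adjusted p = 0.000676).

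Some of the largest changes against control were shared by both compounds and did not pass between them in either fit. Cyp17a1, a steroid hydroxylase, read 2.43 to 3.81 in OLT arrays and 2.37 to 3.25 in D3T arrays, all at background, against 6.42 to 8.84 in control arrays. It fell by 4.88 in OLT livers (adjusted p = 5.28e-06) and 4.83 in D3T livers (adjusted p = 1.55e-06), sizes that rest on the background level. The difference between the compounds was -0.05 (95% interval -0.92 to 0.83). Vnn1, a pantetheinase and PPARα target, fell by 3.66 in OLT livers (adjusted p = 8.61e-06) and 4.22 in D3T livers (adjusted p = 1.23e-06), with a difference of 0.55 (95% interval -0.18 to 1.29). Nceh1, a cholesteryl ester hydrolase, differed by 0.62 (95% interval -0.57 to 1.81) and Aig1 by 0.66 (95% interval -0.25 to 1.56). These intervals do not exclude differences of more than 1 for Nceh1, Vnn1 and Aig1.

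The labelled tissue held its defining transcripts, since the summed level of 5 measured hepatocyte markers lay between 17.46 and 17.65 in OLT arrays, 17.34 and 17.58 in D3T arrays and 17.10 and 17.64 in control arrays. Of 19 measured macrophage markers none was called between the compounds in either fit, with a median of -0.33 without the 2 arrays. The difference was negative for 18 of the 19 in that fit and for 17 as labelled. Over all 7837 genes it was negative for 4161 and 4483. The summed level of the macrophage markers lay between 12.35 and 13.66 in OLT arrays, 12.82 and 13.74 in D3T arrays and 13.08 and 13.70 in control arrays. Of 13 measured stellate cell markers 1, Acta2 (smooth muscle actin), was called higher in OLT livers without the 2 arrays, and of 9 endothelial markers none. None of the 22 measured acute phase genes was called in either fit. Without the 2 arrays 1.56% of all genes were called higher and 3.88% lower in OLT livers against control, and 6.56% higher and 8.42% lower in D3T livers.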

How the data were processed

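Liver RNA of 20 rats was measured on 1-colour Affymetrix arrays, 1 per rat, labelled with biotin. The deposited values are log2 probe set summaries made by the authors with GCRMA, a method of background correction, normalization and probe summary, per the submitters' processing notes; its version is not given in the sources used here. They were used as deposited. The table gives no scan dates or detection calls, so batches could not be examined.

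After removal of control probe sets, those above 4 in at least 5 arrays were kept. Genes were named through the platform annotation, updated by RefSeq gene ID, from probe sets with 1 gene (10047 of 12947 kept, with 295 naming several genes and 2605 none). Where a gene had several kept probe sets (1699 genes), the one with the highest mean stood for it. Tests were made with limma 3.58.1 in R 4.3.3 (lmFit and eBayes with an intensity trend, two-sided, Benjamini-Hochberg adjustment over kept probe sets), on all 20 arrays and on 18. The fit was tested on simulated arrays with independent noise. It recovered 72 of 100 changes of 2-fold on 20 arrays and 72 of 100 on 18. Of 179 calls each, 10 on 20 arrays and 15 on 18 were probe sets without a change. No simulated array was placed near another group, so the simulation does not bear on leaving out OLT 1 and D3T 5.

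The arrays left out, the 32 gene lists and the naming rule were chosen with earlier results of these data known. Named are Akr1b8, Gstp1, Mt2A, Cyp1a1 and the anchor genes; the 10 highest and 10 lowest genes called without OLT 1 and D3T 5 whose groups do not overlap and whose higher mean is above 6; up to 3 members per list with the largest difference; and the 6 genes with the largest mean change called alike against control with both compounds. Stip1, Hsp90ab1, Hmox1 and Nfe2l2 were added after their values were seen. Alternatives were centring, quantile normalization, no or a stricter filter, no trend, array weights, a robust prior, OLT and D3T arrays fitted alone, a replicate block, gene means over probe sets, and omission of each array. The 15 settings counted for single genes in the fit without OLT 1 and D3T 5 exclude the changed filters and gene means. Nothing states that equal numbers mark related rats. Same-numbered arrays deviated together with correlations between -0.272 and 0.202, so they were not paired.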

Additional observations from a re-analysis of the deposited data

Results flagged for a closer look

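In groups of 5 arrays, 1 array stood apart from the other 4, by its gap to the nearest one over the range of the group, in 31 of 192 checks of the genes and groups described. Chance alone flags about 1 in 20 groups, but most of these genes were named for differing once OLT 1 and D3T 5 were left out, so this count cannot be set against chance. All 31 were arrays OLT 1 (13) and D3T 5 (18), and none was a control array.

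Array OLT 1 stood above the other OLT arrays for Akr1b8 (13.61), Gstp1 (15.26), Akr7a3 (14.33), Gsta3 (12.02), Gclc (10.85), Abcc4 (5.63), Abcc3 (10.16), Pgd (11.15), Pnpla3 (5.41), Cryl1 (10.69), Isyna1 (9.09) and Nupr1 (11.47). It stood below them for Hsph1 (10.27).

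Array D3T 5 stood below the other D3T arrays for Akr1b8 (5.77), Gstp1 (10.30), Akr7a3 (11.35), Gsta3 (10.90), Gstm4 (8.75), Srxn1 (6.25), Abcc4 (3.86), Me1 (9.84), Cryl1 (6.73), Isyna1 (5.66), Trib3 (6.42), Nupr1 (8.98) and Hsd11b1 (10.26). It stood above them for Mt2A (11.68), Cyp1a2 (14.51), Hsph1 (10.37), Foxa3 (6.13) and Dab1 (7.04). The cause of these positions was not tested.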

How the results depend on the processing

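As labelled, 0 probe sets were called under centring, quantile normalization, no or a stricter filter, no intensity trend, a robust prior, the fit of OLT and D3T arrays alone and the replicate block, against 112 with array weights and 549 without OLT 1 and D3T 5. Leaving out 1 array gave 0 to 236 calls: 236 without D3T 5, 131 without OLT 1, 1 without D3T 4 and 0 without any other. The genes called with array weights (72), without OLT 1 (89) and without D3T 5 (153) included 71, 89 and 151 of the 379 called without both arrays. These fits share most of their arrays with the fit without both, so the overlap is no independent support. From the 8 arrays, the 549 calls became 364 after centring, 341 with no filter, 850 with array weights and 226 in the fit of OLT and D3T arrays alone. They became 810 after quantile normalization, 583 with the stricter filter, 514 with no intensity trend, 546 with a robust prior and 518 with the replicate block. Leaving out 1 more array gave 342 (OLT 4) to 502, with 354 without D3T 3.

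Over the 63 genes with values above, signs differed from the value as labelled for 4, none of them called. Cyp17a1 was 0.02 with array weights, 0.06 without OLT 1, 0.05 without OLT 3, 0.06 without OLT 4, 0.04 without D3T 1, 0.02 without D3T 3 and 0.0017 without OLT 1 and D3T 5. Over single omissions Cyp17a1 ranged from -0.28 to 0.06, Abcc3 from -1.03 to 0.09 (without D3T 1) and Cyp1b1 from -0.02 (without OLT 1) to 0.07. Cyp1b1 was -0.03 without both arrays, and Hspa1a -0.005 without both arrays. The cause was not tested. Of the 63 genes 53 passed without both arrays, 35 without D3T 5, 25 without OLT 1 and 23 with array weights. In the fit of OLT and D3T arrays alone, also without OLT 1 and D3T 5, calls lost included Gclm (adjusted p = 0.0604), Cyp1a1 (0.0925), Noct (0.0753), Per2 (0.0849), Dnaja4 (0.11), Sult1c3 (0.0939), Pnpla3 (0.192, lost also with array weights), Psat1 (0.123), Cyp8b1 (0.0588), Abcg5 (0.0566) and Axin2 (0.0676). Leaving out 1 more array also ended the calls of Gclc (OLT 2, OLT 4), Angptl4 (D3T 3), Ech1 (OLT 4), Car3 (OLT 3, OLT 5, D3T 3, D3T 4) and, under several omissions each, Usp2, Abcb4 and Ccnd1. Over all 15 settings the highest adjusted p was 0.0555 for Gclc, 0.0859 for Angptl4, 0.0896 for Ech1, 0.169 for Car3, 0.248 for Usp2, 0.22 for Abcb4 and 0.0795 for Ccnd1. The changed filters and gene means are not among these settings. The replicate block and centring each ended the calls of Gclc, Usp2 and Abcb4, and the replicate block that of Ccnd1. Genes that did not pass without OLT 1 and D3T 5 passed in part when 1 more array was left out: Abcc3 without D3T 4, Cyp7a1 without D3T 3, Hmox1 without OLT 5 and Nfe2l2 without OLT 3, D3T 1 or D3T 4. Over all 15 settings Nfe2l2 passed under 6 and Aig1 under 3. With few arrays, values near or under 4 are limited by background more than by spread.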

Other observations

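A pair of chaperone genes, singled out after their values were seen, had all 5 OLT arrays above all 5 D3T arrays as labelled. Of all genes 20 (0.255%) were arranged so, and 71 (0.906%) the other way round. The groups overlapped for every other measured heat shock gene. As labelled, 13 of the 19 measured heat shock genes had a positive difference and 6 a negative one. Stip1, which links Hsp70 to Hsp90, differed by 0.58 as labelled (adjusted p = 0.113) and by 0.72 without OLT 1 and D3T 5 (adjusted p = 0.000548), and was called under all 15 alternative settings of that fit. Hsp90ab1, the constitutive Hsp90, differed by 0.47 as labelled (adjusted p = 0.169) and by 0.56 without the 2 arrays (adjusted p = 0.0103), and lost its call in the fit of OLT and D3T arrays alone (adjusted p = 0.0691). Ccnd1, cyclin D1 of the cell cycle, read 8.08, 10.23, 9.28, 9.64 and 10.26 in OLT arrays and 8.70, 8.86, 8.49, 8.79 and 9.71 in D3T arrays. Its difference was 0.59 as labelled (adjusted p = 0.596) and 1.14 without the 2 arrays (adjusted p = 0.0251), called under 9 of 15 alternative settings.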
